A study of Mus musculus with 2 samples.

Results

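The malate-aspartate shuttle was described here through its 7 genes, taken as a fixed list from the 35163 genes of the count table: the aspartate-glutamate carriers Slc25a12 and Slc25a13, the malate-oxoglutarate carrier Slc25a11, the transaminases Got1 and Got2, and the malate dehydrogenases Mdh1 and Mdh2. All 7 were present in the table. Single myofibers had been released by collagenase from the flexor digitorum brevis (FDB), a foot muscle rich in fast fibers, of 1 untreated male C57BL/6J mouse older than 3 months (1 mouse by the deposited description), and placed into wells with a large particle sorter. Of the 763 wells 670 were labelled as whole myofibers. The other 93 were labelled as fragments, from a second preparation in which small pieces were cut from the muscle before digestion. The paper sorted long and short cells of the first preparation, and describes the short ones as apparent fragments too. Below, whole myofibers and fragments are named by this label, which gives the preparation and not whether a cell was intact. Their RNA was read by mcSCRB-seq, which tags every molecule with its own identifier (UMI) and thereby counts copies made by amplification only once. In 171 wells there were more than 5000 detected genes and less than 20% mitochondrial counts, and these 171 cells, with 3 fragments among the fast 2X cells, are the ones described unless stated. Each was assigned to a fiber class by the largest of its counts for Myh1, Myh2, Myh4, Myh7 and Myh8, which gave 117 fast 2X, 51 fast 2A, 1 fast 2B and 2 slow cells. Only the fast 2X and fast 2A classes held enough cells to be compared. Because all cells belonged to 1 mouse, cells were not replicates, so no p-value was computed. All limits printed are 95% counting limits and cover neither the spread between mice nor that between cells.

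The shuttle moves the reducing power of cytosolic NADH into mitochondria, whose inner membrane does not let NADH through. In the cytosol Mdh1 reduces oxaloacetate to malate, which enters through Slc25a11 in exchange for oxoglutarate. Inside, Mdh2 oxidizes it again and passes the electrons to NAD. Got2 and Got1 then convert oxaloacetate to aspartate and back, and Slc25a12 or Slc25a13 exports the aspartate in exchange for glutamate. The glycerol phosphate shuttle, made of cytosolic Gpd1 and mitochondrial Gpd2, is the other known route for these electrons. Slow and fast 2A fibers are known for oxidative metabolism, and fast 2X fibers for a more glycolytic one.

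The 171 cells had a median of 239581 UMIs, with a range from 28827 to 1542996. Fast 2X cells had a median of 255726 UMIs and a median of 5.01% mitochondrial counts, while fast 2A cells had 206510 UMIs and 6.96%. Both classes came from all 8 plates and both sequencing lanes, but a plate held only 2 to 10 fast 2A cells. The cells that share a library index were taken as 1 plate. Markers of mature myofibers (Acta1, Ckm, Ttn, Tnnt3, Mylpf) summed to 115836 CPM (counts scaled to the same total in each class) in fast 2X and 121147 in fast 2A cells. No marker list of another cell type summed to more than 49.6 CPM in either class, but some were higher in fast 2X than in fast 2A cells: smooth muscle and pericyte markers had 49.0 and 26.2 CPM, Schwann cell markers 24.9 and 14.6, and red blood cell markers 20.5 and 8.57. In 9 cells, however, such markers summed to over 500 CPM, and these were 7 fast 2X cells, 1 fast 2A cell and the fast 2B cell. In the 7 fast 2X cells the myofiber markers had a median of 30336 CPM, against 116075 in the other 110 fast 2X cells. The summed shuttle genes had a median of 432 CPM in those 7 cells, against 1543 in the other 110, and all 6 cells with fewer than 600 CPM of the 7 genes were among them. The class ratios and the correlations between genes are given with and without these cells. All other values of the kept cells include them, so that the lower ends of several ranges below come from them.

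The 7 genes together gave 82050 UMIs in the 171 cells, which was 1580.2 CPM (limits 1569 and 1591). Mdh2 had the highest level, at 525 CPM (limits 518 and 531). Slc25a12 had 275 CPM, Slc25a11 262, Mdh1 239 and Got2 168. Got1 followed with 89.6 CPM, and Slc25a13 was lowest with 22.6 (limits 21.3 and 23.9). The spread between cells was wide, with 544 ± 194 CPM for Mdh2 (mean ± SD over 171 cells), 280.0 ± 107 for Slc25a12, 275 ± 112 for Slc25a11 and 254 ± 138 for Mdh1. Thus Slc25a12, Slc25a11 and Mdh1, neighbors in this order, had means closer together than these SDs. Their counting limits (270 and 279, 257 and 266, 235 and 243 CPM) did not overlap. An SD over cells does not measure the error of a difference between genes read in the same cells. Because UMI counts of cDNA primed at the poly(A) tail need not scale with length, values per kilobase are given only as a second scale. Per kilobase of the longest protein-coding transcript, Mdh2 was again highest, at 360.4 CPM per kb, followed by Slc25a11 with 153, Mdh1 with 113 and Got2 with 66.2. On this scale Got1 (43.6, limits 42.3 and 44.8) and Slc25a12 (43.3, limits 42.6 and 44.0) were not distinguishable, and Slc25a13 was lowest at 7.23. Slc25a13 had no UMI in 13 of 171 cells. Those 13 cells had a median depth of 42291 UMIs, the deepest having 121286. Whether sampling alone would give these zeros was not tested. Got2 was at 0 in 2 cells, Got1 in 1 cell and the other 4 genes in no cell.

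Between fiber classes the genes separated into those with large and those with small differences. Got1, Got2 and Mdh1 were at least 1.5-fold higher in fast 2A than in fast 2X cells. Slc25a12, Slc25a13 and Mdh2 were higher by less, and Slc25a11 was close to equal. None of the 7 was lower over summed counts. Thus 3 of 7 genes were past 1.5-fold, whereas 2.57% of the 8649 genes with at least 500 summed counts were that much higher and 7.31% were that much lower. The median log2 ratio of fast 2A over fast 2X was 0.40 over the 7 genes and -0.09 over all genes tested. Summed, the 7 genes had 1939.9 CPM in fast 2A and 1476 in fast 2X cells. Their log2 ratio was 0.39 (limits 0.37 and 0.42), and the sum was higher in fast 2A on 8 of 8 plates. The cytosolic enzymes Got1 and Mdh1 together had a log2 ratio of 0.75 (limits 0.71 and 0.80), the mitochondrial enzymes Got2 and Mdh2 had 0.33 (limits 0.30 and 0.36), and the 3 carriers had 0.25 (limits 0.21 and 0.29).

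**Figure D1:**
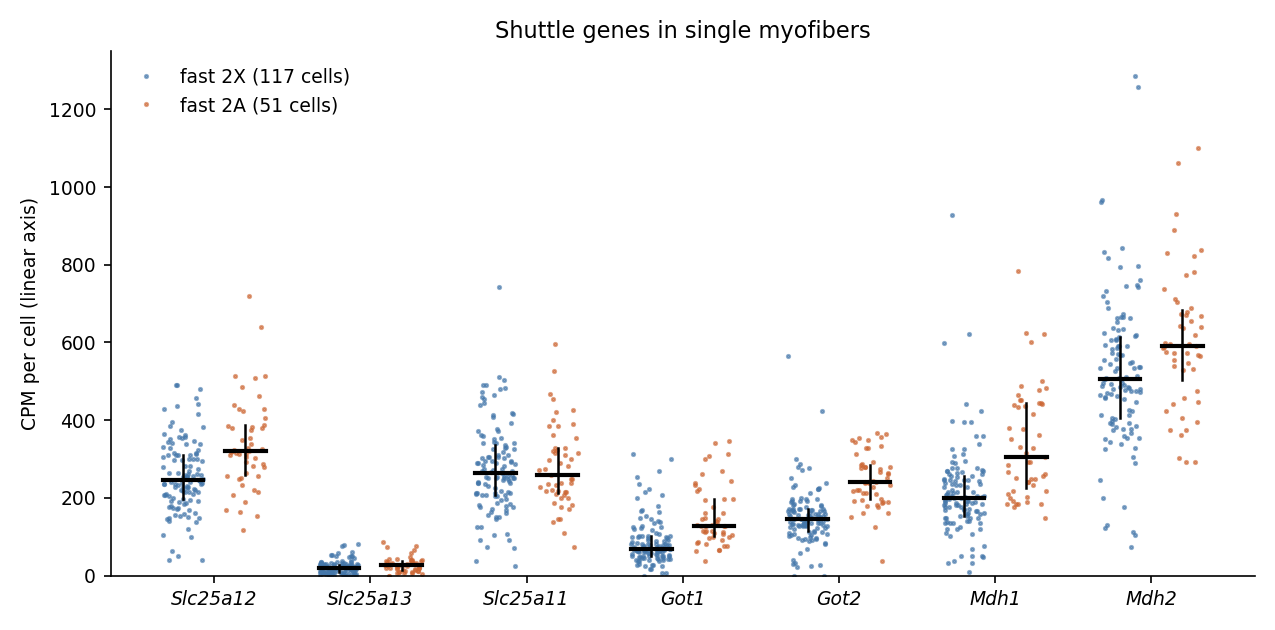
Level of each shuttle gene in each cell (CPM, linear axis) in 117 fast 2X cells (blue) and 51 fast 2A cells (orange), with the horizontal bar at the median and the vertical bar from the lower to the upper quartile. The medians of Got1, Got2 and Mdh1 are clearly apart (69.4 against 129, 145 against 241 and 200.4 against 305 CPM), while those of Slc25a11 are 265 and 258.

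The transaminase Got1, the cytosolic enzyme that turns aspartate back into oxaloacetate, had the largest ratio of the 7. It lies on chr19:43499752-43524605 (GRCm38, minus strand). In fast 2X cells it ran from 0 to 314 CPM with a median of 69.4, and in fast 2A cells from 36.9 to 348 CPM with a median of 129. The 2 ranges overlapped, but 47 of 51 fast 2A cells lay above the fast 2X median, and the fast 2A lower quartile (103 CPM) was above the fast 2X upper quartile (102 CPM). Over summed counts Got1 had 139 CPM in fast 2A and 74.7 in fast 2X cells. Its log2 ratio was 0.89 (limits 0.81 and 0.98), which ranked 91 of 8649 genes. It was higher in fast 2A on 8 of 8 plates, with log2 ratios from 0.54 to 1.31. Leaving out the first lane gave 1.08 and leaving out the second gave 0.73.

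The sequence before the Got1 start is shown because Got1 had the largest difference. It was taken from RefSeq (GRCm38.p6), where promoter windows of 250 bases before to 50 bases after the start were matched for 7 of 7 genes. The stretch of 250 bases on chr19:43524606-43524855, written 5′ to 3′ on the minus strand, ends just before the gene start in both RefSeq and GENCODE and has in capitals each CCAAT box, read on either strand as CCAAT or ATTGG, and the single AAGGTCA, which is the half-site bound by estrogen-related receptors.
Got1: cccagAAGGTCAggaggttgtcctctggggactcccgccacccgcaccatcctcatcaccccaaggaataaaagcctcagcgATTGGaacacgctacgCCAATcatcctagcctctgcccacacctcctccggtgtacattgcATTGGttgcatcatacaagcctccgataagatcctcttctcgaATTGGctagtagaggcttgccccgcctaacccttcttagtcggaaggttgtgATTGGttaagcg
The whole 300-base window of Got1 held 6 CCAAT boxes. Of all 32851 windows 37.4% held at least 1 and 0.0791% held 6 or more. Slc25a13 and Slc25a11 held 1 each, Mdh1 held 2, and the others held none. AAGGTCA occurred in 4.72% of windows, and Got1 alone among the 7 held it. The longer TCAAGGTCA (0.423% of windows) was found in none of the 7 windows. These matches describe letters, not binding, which was not measured.

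Got2, the mitochondrial transaminase, lies on chr8:95864134-95888547 (minus strand). It ran from 0 to 565 CPM in fast 2X cells, with a median of 145, and from 36.9 to 367 CPM in fast 2A cells, with a median of 241. Of the 51 fast 2A cells 49 were above the fast 2X median, the highest share among the 7 genes, although the highest single value was in a fast 2X cell. Summed, it had 241 CPM in fast 2A and 146 in fast 2X cells, with a log2 ratio of 0.73 (limits 0.66 and 0.79), rank 148 of 8649. It was higher in fast 2A on 8 of 8 plates, from 0.40 to 0.93, and past 1.5-fold on 6. Got2 is the gene of the 7 whose counting is least certain: 21.5% of the 66-base stretches of its transcripts also occur in Gm10874, Got2-ps1 or Gm45760. Those genes had 37, 18 and 31 UMIs in all kept cells, against 8700 for Got2. The share of Got2 among the transaminase counts was 66.1% in fast 2X (limits 65.1 and 67.1) and 63.4% in fast 2A cells (limits 62.0 and 64.8), and it was lower in fast 2A on 6 of 8 plates.

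Mdh1, the cytosolic malate dehydrogenase, lies on chr11:21556787-21572367 (minus strand). It ran from 8.31 to 928 CPM in fast 2X cells, with a median of 200.4, and from 148 to 784 CPM in fast 2A cells, with a median of 305. The ranges overlapped, with 43 of 51 fast 2A cells above the fast 2X median. Summed, it had 338 CPM in fast 2A and 208 in fast 2X cells, with a log2 ratio of 0.70 (limits 0.64 and 0.75), rank 155 of 8649. It was higher in fast 2A on 8 of 8 plates, from 0.54 to 0.97. With each cell thinned to 28827 UMIs, the ratio was 0.57, just under the 1.5-fold limit of 0.58. Its exons share 52 bases with Wdpcp on the opposite strand, which had 775 UMIs against 12422 for Mdh1.

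Mdh2, the mitochondrial malate dehydrogenase that also serves the citric acid cycle, differed far less than Mdh1. It lies on chr5:135778480-135790398 (plus strand). It ran from 74.8 to 1286 CPM in fast 2X cells, with a median of 507, and from 291 to 1099 CPM in fast 2A cells, with a median of 590.2. The log2 ratio of the sums (584 against 510.5 CPM) was 0.19 (limits 0.15 and 0.23). By plate it lay between -0.26 and 0.43 and was higher in fast 2A on 6 of 8. The balance within the pair therefore differed between the classes. Mdh2 made up 71.1% of malate dehydrogenase counts in fast 2X (limits 70.5 and 71.6) and 63.4% in fast 2A cells (limits 62.5 and 64.3), and its share was lower in fast 2A on 8 of 8 plates. Over single cells the median share was 70.4% in fast 2X and 64.3% in fast 2A, with ranges from 45.1 to 92.3% and from 40 to 82.8% that overlapped.

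Of the carriers, Slc25a12, the calcium-regulated aspartate-glutamate carrier of muscle and brain, had the clearest difference. It lies on chr2:71271063-71367749 (minus strand). It ran from 40.2 to 492 CPM in fast 2X cells, with a median of 245, and from 118 to 718 CPM in fast 2A cells, with a median of 321. Of the 51 fast 2A cells 42 were above the fast 2X median. The summed levels were 339 and 256 CPM, a log2 ratio of 0.40 (limits 0.35 and 0.46). It was higher in fast 2A on 8 of 8 plates but past 1.5-fold on only 2 of them, with values from 0.03 to 0.77.

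Slc25a13, the aspartate-glutamate carrier best known from liver, lies on chr6:6041218-6217173 (minus strand). It had few counts, with at most 36 UMIs in a cell. It ran from 0 to 80.4 CPM in fast 2X cells, with a median of 19.7, and from 0 to 87.8 CPM in fast 2A cells, with a median of 26.5. The log2 ratio was 0.37 (limits 0.18 and 0.55), but plates ranged from -1.78 to 1.25 and only 5 of 8 were higher in fast 2A. The lowest value (limits -3.68 and -0.39) came from a plate with 2 fast 2A cells, which gave 4 counts. Slc25a12 made up 92.4% of the counts of this carrier pair in fast 2X (limits 91.9 and 92.9) and 92.6% in fast 2A cells (limits 91.7 and 93.3), a difference within counting error.

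Slc25a11, the carrier that exchanges malate for oxoglutarate, lies on chr11:70644196-70647479 (minus strand). It ran from 25.4 to 742 CPM in fast 2X cells, with a median of 265, and from 73.9 to 596 CPM in fast 2A cells, with a median of 258. The classes overlapped almost wholly, with 25 of 51 fast 2A cells above the fast 2X median. The log2 ratio was 0.07 over summed counts (limits 0.01 and 0.13) and -0.036 between the medians over cells, so that its direction depended on the summary. Plates ranged from -0.23 to 0.38. Its exons share 189 bases with Rnf167 on the opposite strand, which had 1162 UMIs against 13591 for Slc25a11.

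**Figure D2:**
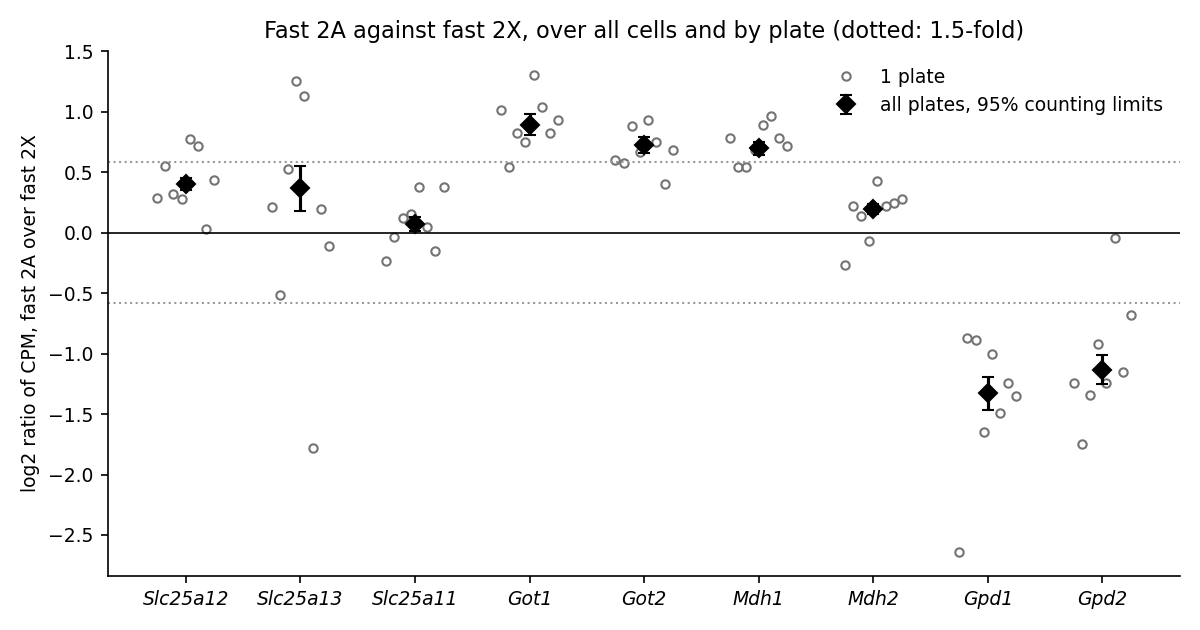
Log2 ratio of CPM in fast 2A over fast 2X cells for the 7 shuttle genes and for Gpd1 and Gpd2, with black diamonds over all plates (bars are 95% counting limits), open circles for single plates and dotted lines at 1.5-fold. Got1, Got2, Mdh1 and Slc25a12 are above 0 on 8 of 8 plates, and Gpd1 and Gpd2 are below 0 on 8 of 8.

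Mdh2 and Slc25a11, which had the smallest ratios, were the only ones of the 7 whose promoter windows held TCGCGAGA. This motif was chosen after the letters and the ratios were seen. It was found in 0.995% of the 32851 windows, and 0.0974% held 3 or more matches. The windows follow RefSeq starts, which for these genes lie inside the GENCODE genes placed above, 169 bases after the GENCODE start of Mdh2 and 440 after that of Slc25a11. So the first Mdh2 stretch lies before the GENCODE gene, while the other 2, and all 3 of Slc25a11, lie within it. The stretches of 30 bases around the matches are shown, 5′ to 3′ on the strand of each gene, with the motif or its reverse complement TCTCGCGA in capitals. In Mdh2 each site was the palindrome TCTCGCGAGA, which holds the motif on both strands, so that 3 sites gave 6 matches, and this longer form was found in 0.466% of windows.
Mdh2, chr5:135778449-135778478: gccgggcctcTCTCGCGAGAtctcggaagt
Mdh2, chr5:135778576-135778605: gccgagcctgTCTCGCGAGAtttggctcaa
Mdh2, chr5:135778610-135778639: cttgcgcttcTCTCGCGAGAtcaggtggct
Slc25a11, chr11:70647257-70647286: gttcaaagtaTCGCGAGAgtgcttgccacc
Slc25a11, chr11:70647194-70647223: ctgaaatataTCGCGAGAggcctcatagcc
Slc25a11, chr11:70647152-70647181: attcacttgcTCTCGCGAggttttcaaaca

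The class is cut from continuous myosin counts, so the genes were also followed along the share of Myh2 in the summed Myh1 and Myh2 counts. This was done in the 168 fast 2X and fast 2A cells. Got1 was 68.1 CPM in the 48 cells with under 20% Myh2 and 77.5 in the 59 cells with 20 to 40%, and then 131, 140.0 and 138 in the next 3 ranges. Most of its difference thus lay between the second and the third range. Got2 had 135, 157, 186, 252 and 236 CPM over the same ranges, and Mdh1 had 205, 199, 276, 346 and 366. Slc25a12 followed with 242, 267, 312, 357 and 326 CPM. Mdh2 was highest in the middle range (503, 505, 641, 609 and 519.9 CPM), and Slc25a11 showed no steady direction (259.9, 262, 272, 295 and 228 CPM). The ranges above 40% held 16, 29 and 16 cells. Across the 168 cells the Pearson correlation with the Myh2 share was 0.52 for Got1, 0.42 for Got2, 0.42 for Mdh1, 0.30 for Slc25a12 and -0.01 for Slc25a11. Within the 117 fast 2X cells it was 0.36 for Got1 and between -0.09 and 0.07 for the other 6. These correlations are across cells of 1 mouse that share plates and depth, and describe the data only.

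**Figure D3:**
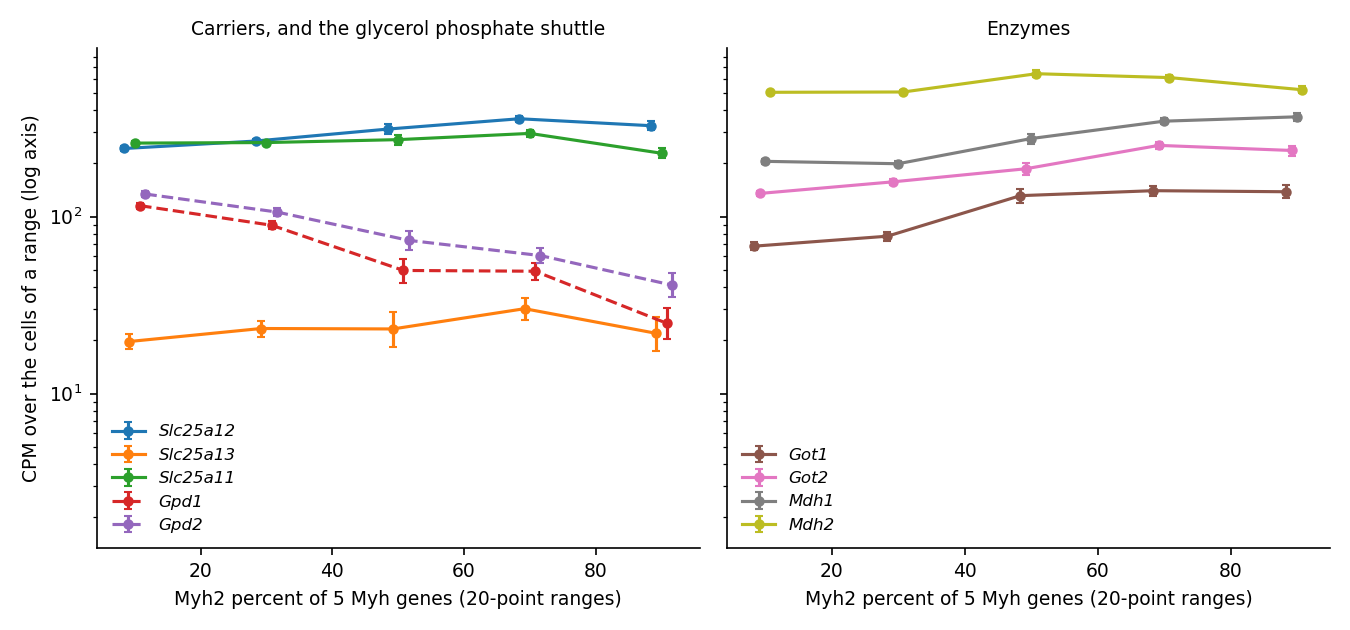
CPM over the cells of each range of the Myh2 percentage (log axis, 95% counting limits) for the carriers with Gpd1 and Gpd2 (left, dashed for the latter) and the enzymes (right). The percentage is of Myh1 and Myh2 counts only, although the axis title names 5 Myh genes. Got1 runs from 68.1 to 138 CPM and Gpd1 from 115 to 24.96 CPM from the lowest to the highest range.

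The glycerol phosphate shuttle went the other way. Gpd1 and Gpd2, and Gpd1l listed with them, were all at least 1.5-fold lower in fast 2A than in fast 2X cells, beside 7.31% of the 8649 genes tested. Gpd1, the cytosolic glycerol 3-phosphate dehydrogenase, had 40.6 and 102 CPM in fast 2A and fast 2X cells, which gave -1.33 on the log2 scale (limits -1.47 and -1.19). Gpd2, the mitochondrial enzyme that takes up the electrons, had 54.8 and 120.3 CPM, a log2 ratio of -1.13 (limits -1.25 and -1.01). Gpd1l, a close relative of Gpd1, had a ratio of -0.64. Along the Myh2 share, Gpd1 was 115, 89.3, 49.6, 49.1 and 24.96 CPM, and Gpd2 was 134, 106, 73.4, 60.2 and 41.0 CPM, both lowest in the highest range. Gpd1 was lower in fast 2A on 8 of 8 plates, with log2 ratios from -2.64 to -0.87, and so was Gpd2, from -1.75 to -0.044. The Gpd2 value nearest to equal came from a plate with 2 fast 2A cells, and its limits were -0.43 and 0.32. In the cells that did not pass the limits on genes and mitochondrial counts, described at the end, the log2 ratios were only -0.51 for Gpd1 and -0.18 for Gpd2, neither past 1.5-fold. Among the whole myofibers of those cells they were -0.62, which is past it, and -0.0038. For each count of Gpd1 and Gpd2 there were 6.64 counts of the 7 malate-aspartate genes in fast 2X and 20.3 in fast 2A cells. Over single cells this quotient had a median of 7.15 in fast 2X (quartiles 5.24 and 9.95) and of 19.6 in fast 2A (quartiles 14.9 and 29.9). On every plate it was higher in fast 2A, with values from 13.7 to 28.9, than in fast 2X, with values from 5.07 to 8.18, so that the plate values did not overlap.

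**Figure D4:**
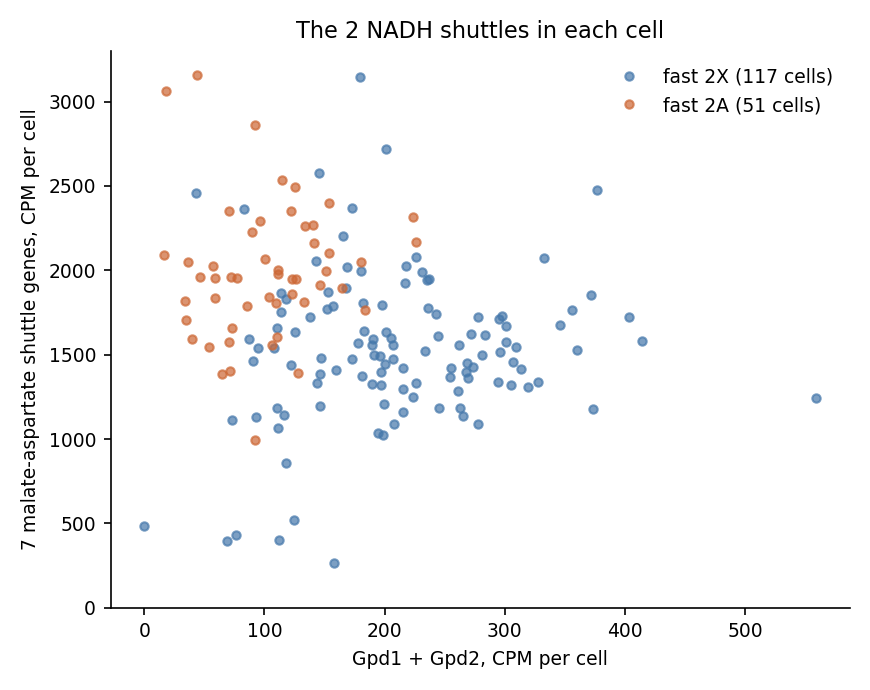
Summed CPM of the 7 malate-aspartate shuttle genes against the summed CPM of Gpd1 and Gpd2 in each of 117 fast 2X (blue) and 51 fast 2A (orange) cells. Fast 2A cells lie to the upper left, with Gpd sums from 16.6 to 227 CPM, and fast 2X cells reach 559 CPM.

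Among genes that share substrates with the shuttle, the lactate dehydrogenases were the most unequal pair. Ldhb, the heart-type subunit, had 356 CPM in fast 2A and 104 in fast 2X cells, or 1.78 on the log2 scale (limits 1.72 and 1.84). Ldha, the muscle-type subunit, had 835 and 1339.7 CPM, a ratio of -0.68 (limits -0.71 and -0.65). Ldhb was higher and Ldha lower in fast 2A on 8 of 8 plates. Of 9 lactate and pyruvate genes, 1 was past 1.5-fold higher and 2 lower, the second being the lactate exporter Slc16a3 at -0.67. Over all 8649 genes tested, 2.57% were past 1.5-fold higher and 7.31% lower. Pdha1, a subunit of pyruvate dehydrogenase, had a ratio of 0.48. Of the other malate, aspartate and glutamate genes, 8 of 11 had enough counts, none was past 1.5-fold higher and 2 were lower: Gpt2, the mitochondrial alanine transaminase, at -1.35 and Me1, the cytosolic malic enzyme, at -0.68. Glutamate dehydrogenase Glud1 had 0.19, Me2 had -0.28 and glutamine synthetase Glul had 0.50.

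The citric acid cycle, which shares Mdh2 with the shuttle, had a median log2 ratio of 0.33 over 17 genes. Of these 1 was past 1.5-fold higher, the NADP-dependent isocitrate dehydrogenase Idh2 at 1.16, and none was lower. Dld, Sdhc and Dlst followed at 0.51, 0.47 and 0.44. Glycolysis had a median of -0.29 over 10 genes. Tpi1 was past 1.5-fold lower, at -0.59, and Pgk1, Pkm and Aldoa had -0.47, -0.41 and -0.37. In the purine nucleotide cycle, which uses aspartate and releases fumarate, AMP deaminase Ampd1 was at -0.99 and was the only one of 4 genes past 1.5-fold. Of the other mitochondrial carriers 27 of 48 had enough counts, of which 3 were past 1.5-fold higher and 5 lower, with a median of -0.15. The largest ratios were -1.97 for Ucp1, which had only 4.03 and 15.7 CPM, 1.04 for Ucp2, 0.90 for Slc25a34 and -0.71 for Slc25a37. These lists were compared by counts and medians only. The counts stand beside 2.57% of all 8649 genes tested past 1.5-fold higher and 7.31% lower.

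**Figure D5:**
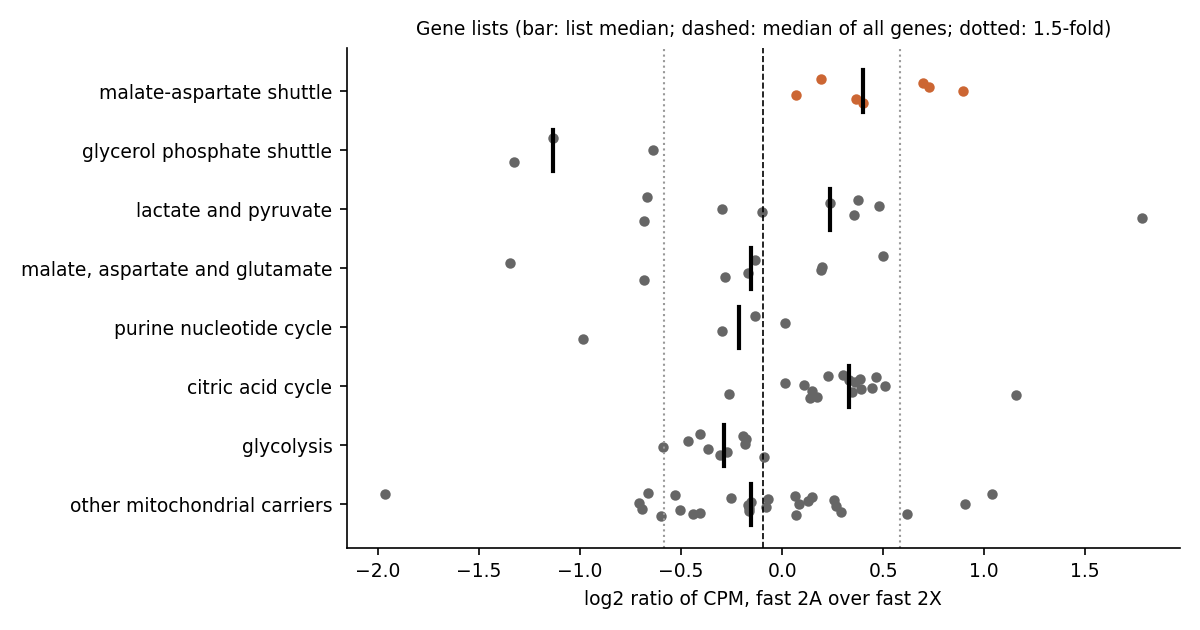
Log2 ratio of CPM in fast 2A over fast 2X cells for each tested gene of the 8 lists, with a bar at each list median, a dashed line at the median of all genes (-0.09) and dotted lines at 1.5-fold. The malate-aspartate shuttle has a median of 0.40 and the glycerol phosphate shuttle one of -1.13.

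The shuttle genes were partly correlated with each other across cells, and much of this rested on the 9 cells with markers of other cell types. On log2(CPM + 10), the 15 pairs without Slc25a13 had Pearson correlations from 0.26 to 0.62 over 171 cells, the highest being Slc25a12 with Mdh1 (0.62) and Mdh1 with Mdh2 (0.61). Over the 162 cells left without those 9, the range was 0.07 to 0.43, with the same 2 pairs at 0.43 and 0.40. Slc25a13 had correlations from -0.12 to 0.06 with the other 6 over 171 cells and from 0.058 to 0.17 over the 162. All of these values share depth and library, and weak ones in sparse counts are no finding. Among 3949 genes with at least 10 counts per cell on average, the most alike to Got1 were Ckmt2, the mitochondrial creatine kinase of muscle, Myoz2 and Alpk3 (0.60, 0.59 and 0.58), and these kept 0.54, 0.54 and 0.55 without the 9 cells. For Got2 they included Cox8b and Actn2 (both 0.70, and both 0.48 without the 9 cells), and for Mdh1 they were Hspb6, Myot and Uqcrfs1 (0.67, 0.67 and 0.66; 0.54, 0.51 and 0.53). Mdh2 was most alike to Acta1, Chchd10 and Slc25a4 (0.74, 0.74 and 0.73; 0.53, 0.54 and 0.52), and Slc25a11 to Slc25a4, Acta1 and Eno3 (0.67, 0.65 and 0.64; 0.41, 0.38 and 0.36). Slc25a12 was most alike to Fhl1, Myot and myoglobin, Mb (0.65, 0.65 and 0.64), with 0.45, 0.42 and 0.33 without the 9 cells. Slc25a13 reached only 0.36, with Per1, and then Dazap1 and Dcc at 0.35 and 0.34, with 0.27, 0.30 and 0.30 without the 9 cells.

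The 9 cells had little effect on the comparison of the classes. Without them (50 fast 2A and 110 fast 2X cells) the log2 ratios were 0.87 for Got1, 0.72 for Got2, 0.68 for Mdh1, 0.38 for Slc25a12, 0.41 for Slc25a13, 0.17 for Mdh2 and 0.05 for Slc25a11, and the same 3 genes were past 1.5-fold.

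The slow and fast 2B classes held too few cells to be compared. In the 2 slow cells Mdh1 had 422 CPM (limits 366 and 484) in the deeper cell and 179 (limits 106 and 283) in the other, and Got1 had 66.8 and 139 CPM. Got2 had 150.4 and 179 CPM, Slc25a12 had 269 and 288, and Mdh2 had 401 and 328. The 2 slow cells thus differed from each other in Mdh1 by more than counting error. The single fast 2B cell, which was among the 9 with markers of other cell types, had 249 CPM of Mdh2, 167 of Slc25a12 and 117 of Slc25a11.

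The 592 cells that did not pass the limits on genes or mitochondrial counts offered other cells of the same mouse and plates. Of these 66 had Myh2 and 420 had Myh1 as the leading myosin gene with at least 20 counts, fragments making up 10 of the 66 and 61 of the 420, and their median mitochondrial share was 52.0 and 52.7% of counts. With mitochondrial counts left out of the totals, Got1 again had the largest log2 ratio of fast 2A over fast 2X, at 0.91 (limits 0.63 and 1.19). Slc25a13 was at 0.63 (limits 0.22 and 1.03), Mdh1 at 0.48 (limits 0.28 and 0.68), Got2 at 0.32 (limits 0.03 and 0.59), Slc25a12 at 0.30, Mdh2 at 0.19 and Slc25a11 at 0.14 (limits -0.07 and 0.34). Thus 2 of 7 genes, Got1 and Slc25a13, were past 1.5-fold, and Got2 and Mdh1 were not. Of the 2100 genes tested in these cells, with at least 500 summed counts, 3.9% were that much higher and 4.43% lower. Slc25a13, with 67 counts in fast 2A and 230 in fast 2X cells, was under that minimum. Among the genes tested, only Got1 of the shuttle genes was therefore past 1.5-fold. The median over the 7 genes was 0.32, and over all genes tested -0.03. Without the cells labelled as fragments, 56 fast 2A and 359 fast 2X cells were left. Got1 was then at 0.90, Slc25a13 at 0.73, Mdh1 at 0.57 and Got2 at 0.41. Again 2 genes were past 1.5-fold.

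Between the excluded and the kept cells as a whole, 6 of the 7 genes were lower in the excluded cells also when mitochondrial counts were left out of the totals. Got2 had the largest difference, with a log2 ratio of -0.83 (limits -0.94 and -0.72), 100.1 against 178 CPM of non-mitochondrial counts. Mdh1 had -0.53, Mdh2 -0.46, Slc25a11 -0.45, Slc25a12 -0.30 and Got1 -0.24. Slc25a13 was the exception, at 0.87 (limits 0.68 and 1.04), with 43.7 against 24.0 CPM. Of 9747 genes tested, 26.4% were at least 1.5-fold higher in the excluded cells and 12.9% lower, and 1 of 7 shuttle genes was past 1.5-fold in each direction. This count depended on the totals and cells. With mitochondrial counts in the totals 6 genes were past 1.5-fold lower and none higher. In excluded cells with more than 5000 genes, without mitochondrial counts, 3 were lower and 1 higher. The share of all genes was not computed for either setting, so these counts cannot be read as particular to the shuttle genes. Putting mitochondrial counts into the totals lowers the log2 ratio of every other gene by the same amount. Of the 592 excluded cells 90 were fragments, whose part in these ratios was not tested. Every marker list of another cell type was also higher in the excluded cells than in the kept fast 2X and fast 2A cells. Endothelial and smooth muscle markers had 160.3 and 180.2 CPM, against 49.6 and 49.0 in fast 2X and 43.1 and 26.2 in fast 2A cells. Red blood cell and fibroblast markers had 136 and 121 CPM, against 20.5 and 46.1 in fast 2X and 8.57 and 46.6 in fast 2A cells. Their part in these ratios was not tested.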

How the data were processed

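The authors mapped reads to GRCm38 with spike-in sequences by zUMIs, which runs STAR (version 2.5.4b in the submitters' processing notes) and featureCounts, and deposited UMI counts per gene as raw whole numbers, in a table handled under the unit estimated counts because its descriptive lines hold decimals. zUMIs was run with default settings. Which of its count tables was deposited, with or without intronic reads, is not given in the sources used here. Cells were kept and classed as described with the results. For each class the counts of its cells were added up, divided by the class total and given as CPM. Limits are exact Poisson limits for CPM, exact conditional binomial limits for ratios and exact Clopper-Pearson limits for shares (scipy 1.17.1). With 1 mouse, a ratio of at least 1.5 was counted in place of a test, over genes with at least 500 summed counts and without the 5 Myh genes. TMM factors came from edgeR 4.0.16 (R 4.3.3), and no edgeR test was run. Coordinates and transcript lengths are from GENCODE annotation of GRCm38, and promoter windows from RefSeq. Because the cDNA is primed at the poly(A) tail, UMI counts need not scale with transcript length.

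The members and lists were chosen with earlier results of these data known. All 7 members were named. From each list up to 4 genes with the largest absolute log2 ratio and at least 500 counts were named, with Gpd1, Gpd2, Ldha, Ldhb, Me1 and Glud1 whatever their values. For likeness, the 3 genes with the highest Pearson correlation with each member were named, except 1 for Got2 that is not reported here. The promoter motifs were chosen after values were seen. No full cell barcode was shared between plates. The 2 deposited samples are 2 sequencing lanes of 1 group, each with 4 of the 8 plates. Alternatives covered scaling, summary over cells, depth, cell limits, class rule and each lane left out.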

Additional observations from a re-analysis of the deposited data

How the results depend on the processing

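Under 18 other settings, of which 4 (excluded cells, cells without markers of other types, and whole myofibers only, kept or excluded) were chosen after seeing the data, Got1 stayed at least 1.5-fold higher in fast 2A than in fast 2X cells in 18 of 18, Got2 in 16 and Mdh1 in 15. Some of these settings could not have lowered the tally. Classing without Myh8 left both classes and all ratios unchanged. TMM, the median of ratios and totals without mitochondrial genes each raised every ratio of the 7 genes by a fixed amount. The number of the 7 genes past 1.5-fold was 3 in all but the thinned cells (Got1 and Got2) and the excluded cells with or without fragments (Got1 and Slc25a13), with 2 each. The median log2 ratio of the 7 genes was 0.51 with TMM factors, 0.52 with the median of ratios, 0.24 with each cell thinned to 28827 UMIs, 0.48 without 18 cells near the class boundary and 0.32 in the excluded cells. It was 0.43 without FDB replicate 1, the first lane, and 0.57 without FDB replicate 2, the second lane, and the number past 1.5-fold was 3 in both. TMM and the median of ratios shifted all log2 ratios up by the same amount, the median of all genes from -0.09 to 0.02 and 0.03. Slc25a11 turned to -0.036 between medians over cells. The share of all genes at least 1.5-fold higher was 2.57% with a minimum of 500 counts, 4.12% with 100 and 14.5% with 1 count in each class, and of those lower it was 7.31, 14.1 and 23.0%. Between excluded and kept cells, Slc25a13 had a log2 ratio of -0.12 with mitochondrial counts in the totals, 0.87 without them and 1.07 in excluded cells with more than 5000 genes. Leaving mitochondrial counts out of the totals raised the log2 ratios of all 7 genes by the same amount, for Got2 from -1.82 to -0.83. The cause of the other changes was not tested.

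No paired analysis was possible because the 2 samples are lanes of 1 group and share replicate numbers with no other group. The fiber classes were instead set side by side within each plate, as values with no test. Values rest on 1 mouse, so that nothing here measures the spread between animals. Fast 2A cells were shallower than fast 2X cells, and the low counts of Slc25a13 limit what its plate values can show.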
